A study of Dimocarpus longan with 9 samples.

Results

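The pericarp VS seed comparison set the RNA of the fruit rind of longan (Dimocarpus longan) against the RNA of its seed. It rests on 2 of the 9 libraries of the series, 1 from pericarp and 1 from seed, and it covers all 30014 genes of the expression table. For each gene the difference was taken as log2((seed + 1)/(pericarp + 1)), with both levels in FPKM (fragments scaled to transcript length and library size), so that a positive value means higher in seed. A gene was counted as higher in a tissue when this difference was at least 1 in size, which is 2-fold on that scale. The added 1 FPKM makes the difference of weakly expressed genes smaller than their true ratio.

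Poly(A)+ RNA from 9 organs of the “SJM” (sijimi) cultivar was sequenced. Beside pericarp and seed these were pulp and young fruit, both flower stages (bud and open flower), leaf, stem and root. All were untreated tissues of the same cultivar. Reads were placed on the draft genome of a different cultivar, “HHZ”. The age of the fruit from which pericarp and seed were taken is not given in the labels, and each tissue has 1 library, so no difference below could be set against a spread between replicates and no test was made.

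In a longan fruit the pericarp is maternal tissue that forms the outer rind, the pulp is a fleshy aril that grows around the seed, and the seed holds the embryo and its reserves inside a seed coat. Pericarp faces light, wounding and microbes, while a filling or ripe seed stores protein, starch and oil. Plant transcription factors (TFs) belong to large families, named here as the study's list of TF types names them, and the roles given for a type are those known in model plants, not roles shown for the longan gene.

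The summed FPKM of the 9 libraries ran from 884470 to 1011820, and that of pericarp and seed was 981770 and 950857. The steps between low FPKM values, taken over 1902 genes of which 186 lay at the commonest ratio, put the seed library at a log2 depth of 0.29 above the pericarp library. No read counts were used, so a counting interval cannot be given for single genes. In pericarp 21777 genes were above 0 FPKM, and in seed 22320 were. At 1 FPKM or more the numbers were 17590 and 17668. No genes of seed storage protein, oil body or cuticle were identified by name in the sources used here, so the tissue labels could be held only against TF types and the other 7 libraries.

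Of all 30014 genes, 3742 were at least 2-fold higher in seed, which is 12.5% of the table, and 4367 were at least 2-fold higher in pericarp, which is 14.5%. The changed genes therefore numbered 8109, or 27.0%, and 46.1% of them were higher in seed. That small excess on the pericarp side turned to 53.2% higher in seed when the 10 highest genes of each library were left out and the libraries were rescaled, a step that moved all differences by 0.20 (log2) towards seed. The median difference over all genes was 0.00. The limit of 1 did not fall in a gap, since 705 genes had a difference from 1.0 to under 1.1 in size and 844 had one from 0.9 to under 1.0. A bulk tissue level cannot tell fewer cells of a type from less RNA per cell, here or in any value below.

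The order of the tissues depended on the size of the difference. At 4-fold or more, 1633 genes were higher in seed (5.44% of all) and 1971 in pericarp (6.57%). At 64-fold or more the order was reversed, with 122 genes higher in seed and 33 higher in pericarp. The largest difference towards seed was 13.28 and the largest towards pericarp was -7.90.

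**Figure D1:**
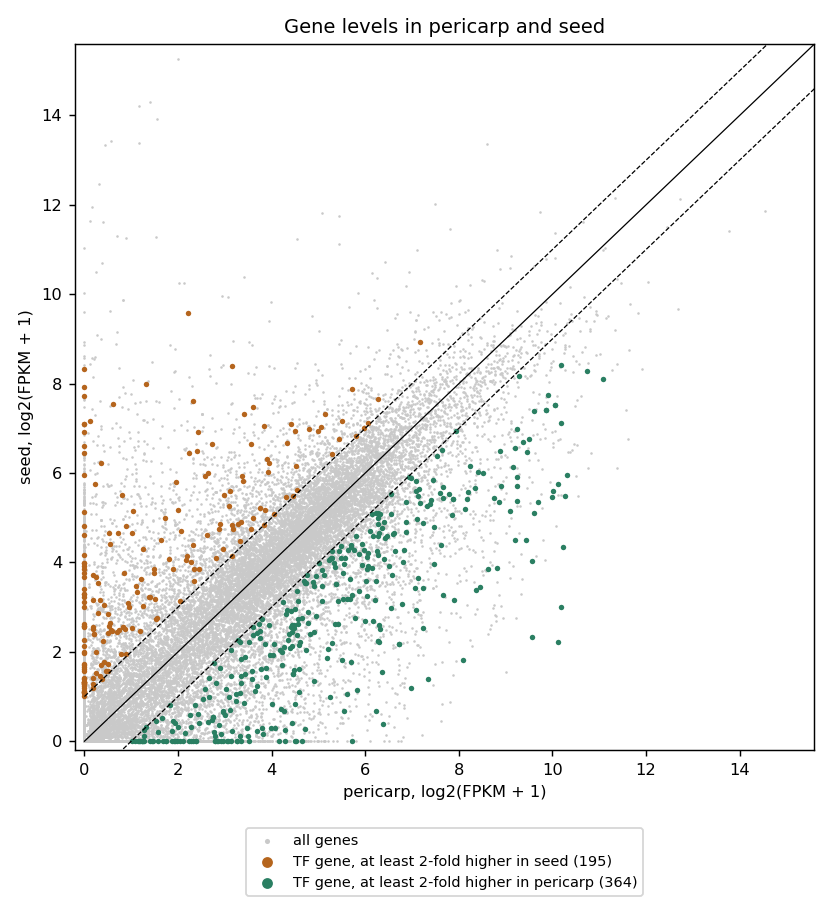
Each point is 1 gene, with its level in pericarp on the x axis and in seed on the y axis, both as log2(FPKM + 1). Grey points are all 30014 genes, brown points the 195 TF genes at least 2-fold higher in seed and green points the 364 at least 2-fold higher in pericarp. The solid line marks equal levels and the dashed lines 2-fold. The upper left corner holds the genes that were abundant in seed and near 0 in pericarp.

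The highest genes held a larger part of the summed FPKM in seed than in pericarp. The 10 highest genes held 15.5% of the summed FPKM of seed against 7.64% in pericarp. Further down the tissues were closer, since 50% of the summed FPKM took the 620 highest genes in seed and the 713 highest in pericarp. In seed 8 genes lay at 5000 FPKM or more while being under 5 FPKM in pericarp. They ran from 5703 to 39585 FPKM in seed and from 0.24 to 2.99 FPKM in pericarp, and together they made up 13.9% of the seed total. In the other 7 libraries none of the 8 passed 162 FPKM, a level reached in flower, and 4 of them stayed at or under 5 FPKM in all 7. None of the sources used here annotates the pair with the largest differences. Dlo_024518.1 was at 2.99 FPKM in pericarp and 39585 in seed, and Dlo_026500.1 was at 1.25 FPKM in pericarp and 19093 in seed.

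Pericarp had no gene of that kind, at 5000 FPKM or more with under 5 FPKM in seed. Its largest differences among unannotated genes were those of Dlo_033351.1, with 516 FPKM in pericarp and 1.94 in seed, and Dlo_021643.1, with 197 FPKM in pericarp and 0.36 in seed. Both were higher in an organ outside the fruit, with 1110 FPKM of Dlo_033351.1 in flower bud and 316 FPKM of Dlo_021643.1 in root. More genes passed 1000 FPKM in pericarp (105) than in seed (60). Of the 100 highest genes of each tissue, 24 were shared, which is the same share of either list.

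Genes listed at 0 in 1 of the tissues were mostly weak in the other. Pericarp listed 2599 genes at 0 that had a value in seed, with a median of 0.52 FPKM there, and 228 of them had at least 10 FPKM. Seed listed 2056 genes at 0 that had a value in pericarp, with a median of 0.51 FPKM, and 103 of them had at least 10 FPKM. The highest of these was at 2093 FPKM in seed for the first group and at 107.7 FPKM in pericarp for the second. A further 5638 genes were listed at 0 in both tissues.

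The TF genes leaned to pericarp. The study's list holds 1611 TF genes in all, of which 1529 were in the table, in 64 types. Of these, 364 were at least 2-fold higher in pericarp (23.8%, against 14.5% of all genes) and 195 were at least 2-fold higher in seed (12.8%, against 12.5%). The seed share was thus close to the background and the pericarp share was above it. Among genes with at least 10 FPKM in the higher tissue, 36.8% of the 740 TF genes were higher in pericarp against 21.9% of all 12532 genes, and 15.1% of the TF genes were higher in seed against 17.9%. The excess on the pericarp side was present under both other scalings, with 351 genes against 204 after median-ratio scaling and 331 against 220 without the 10 highest genes.

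Summed over all TF genes, pericarp had 73941 FPKM (7.53% of its total) and seed had 34109 FPKM (3.59%). TF genes were 13 of the 100 highest genes of pericarp and 1 of the 100 highest genes of seed. The 3 highest TF genes of pericarp were the C2H2 zinc finger genes Dlo_033797.1 (2152 FPKM in pericarp, 273 in seed) and Dlo_012104.1 (1721 and 308) and the WRKY gene Dlo_009865.1 (1275 and 61.2). Each of them had its highest level of the 9 libraries in pericarp. In seed the order was led by the MIKC gene Dlo_026285.1 (763 FPKM), followed by the NAC genes Dlo_029232.1 (599) and Dlo_006299.1 (516), against pericarp levels of 3.62, 310 and 354 FPKM. The differences of the NAC genes, 0.95 and 0.54, were under the limit, but that of Dlo_029232.1 became 1.02 and 1.15 under the other scalings.

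**Figure D2:**
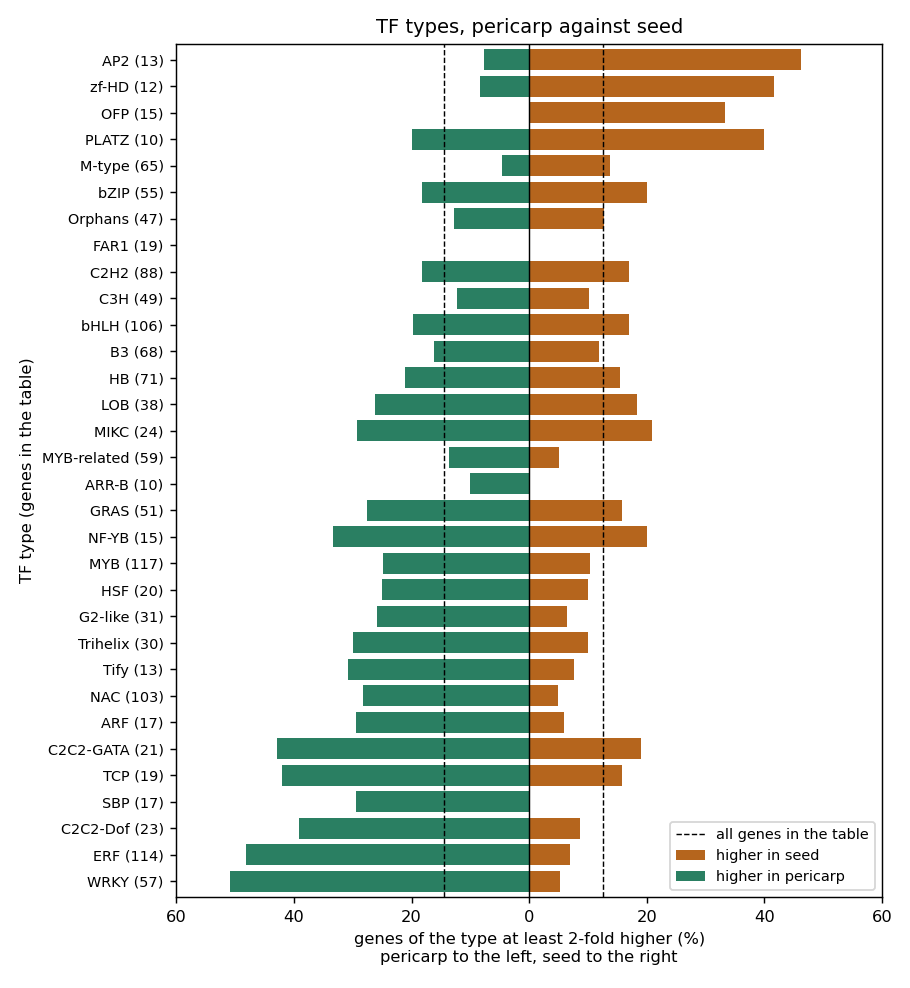
Bars give the percentage of the genes of each TF type that were at least 2-fold higher in pericarp (green, to the left) or in seed (brown, to the right), for the 32 types with at least 10 genes in the table; the number of genes is in brackets. Dashed lines mark the shares over all genes, 14.5% and 12.5%. WRKY and ERF reach farthest to the left and AP2 farthest to the right.

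Of the 32 TF types with at least 10 genes in the table, 24 had more genes higher in pericarp, 6 had more genes higher in seed and 2 had equal numbers. The 4 types with the most genes on the pericarp side were ERF, WRKY, NAC and MYB. They hold 391 of the TF genes, 142 of them higher in pericarp and 28 higher in seed, and they made up 39.0% of all TF genes higher in pericarp. They were picked for these counts, so a smaller excess in the remaining types follows from the choice. Of 1138 genes of all other types, 222 (19.5%) were higher in pericarp and 167 (14.7%) were higher in seed.

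ERF genes, the ethylene response factors that act in hormone, wounding and drought responses, had 55 of 114 members higher in pericarp (48.2%) and 8 higher in seed (7.02%). Their median difference was -0.86 and their summed level was 14504.3 FPKM in pericarp and 3332 FPKM in seed. Dlo_007316.1 was at 1109 FPKM in pericarp and 3.63 in seed, the largest difference towards pericarp of any gene in the table (-7.90). Its neighbour by ID, Dlo_007317.1, was at 1157 FPKM in pericarp and 7.02 in seed. Both were also high in stem (484 and 386 FPKM) and young fruit (646 and 255 FPKM), and low in root and pulp, where none of the 4 values passed 5.90 FPKM. The ERF gene Dlo_005618.1, was at 51.6 FPKM in pericarp and listed at 0 in seed and in pulp. Whether neighbouring genes of 1 family share reads was not tested.

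The 55 ERF genes higher in pericarp were close to their pericarp level in stem and young fruit and lower in the other libraries. Their median level was 55.5 FPKM in pericarp, 66.4 in stem and 51.2 in young fruit, then 25.9 in leaf, 24.7 in flower and 20.6 in flower bud. It was 12.8 FPKM in root, 4.75 in pulp and 5.76 in seed. The pulp value was thus as low as that of seed, although these genes were chosen by their pericarp and seed levels and not by pulp. This does not hold for the whole type, whose summed level was 6040 FPKM in pulp and 3332 in seed. The 8 ERF genes of the opposite kind had a median of 80.2 FPKM in seed, and their median in any other library was at most 5.84 FPKM. Single genes went higher elsewhere, and only 3 of the 8 had their highest level of the 9 libraries in seed. They were led by Dlo_000585.2 (142 FPKM in seed, 0.09 in pericarp), which was at most 5.99 FPKM elsewhere.

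WRKY genes, best known for their part in defence against pathogens and in senescence, had the highest pericarp share of the 32 types. Of 57 genes, 29 were higher in pericarp (50.9%) and 3 higher in seed (5.26%), with a median difference of -1.17. Their summed level was 6892 FPKM in pericarp, the highest of the 9 libraries, 843 in seed and 543 in pulp. Dlo_030713.1 was at 758 FPKM in pericarp and 4.06 in seed. Dlo_015501.2 was at 1193.1 FPKM in pericarp and 19.2 in seed. Of the 3 genes higher in seed, the one with at least 10 FPKM there was Dlo_015224.1, at 16.2 FPKM in seed, 5.98 in pericarp and 106 in flower, and its difference of 1.30 became 0.95 with a pseudocount of 5 FPKM.

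NAC genes include regulators of secondary wall formation, of senescence and of stress responses. Of 103, 29 were higher in pericarp (28.2%) and 5 higher in seed (4.85%). Dlo_032492.2 was at 273 FPKM in pericarp and 2.54 in seed, and Dlo_024178.1 was at 160.5 FPKM in pericarp and 1.62 in seed. Both had their highest level of the 9 libraries in pericarp. The largest difference towards seed was that of Dlo_018490.1, at 4.32 FPKM in pericarp and 89.4 in seed, which was higher still in flower bud (143) and flower (126). The summed NAC level was 5180 FPKM in pericarp and 3042 in seed.

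MYB genes, a family with regulators of phenylpropanoid and flavonoid synthesis as well as of epidermal cell shape, had 29 of 117 members higher in pericarp (24.8%) and 12 higher in seed (10.3%). Their median difference was -0.01. Dlo_022183.1 was at 73.9 FPKM in pericarp and 0.59 in seed, and it was higher in stem (228) and flower (211). Dlo_019339.1 had the largest difference towards seed, at 12.7 FPKM in seed and listed at 0 in pericarp, next to 11.5 FPKM in root. The 29 MYB genes higher in pericarp had a median of 18.3 FPKM there and of 1.00 FPKM in seed.

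**Figure D3:**
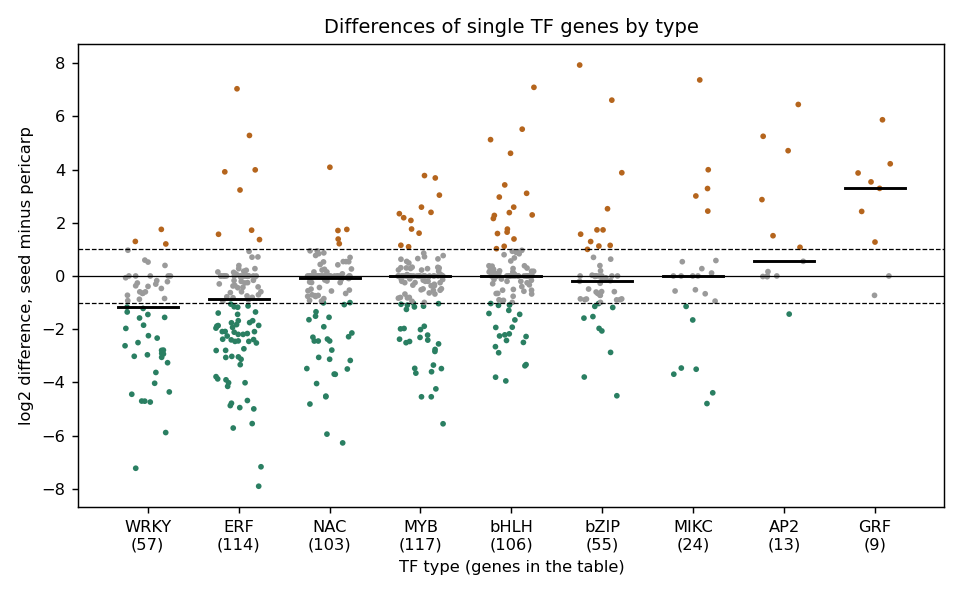
Each point is 1 TF gene of the 9 types on the x axis, with its log2 difference between seed and pericarp on the y axis. Brown points were at least 2-fold higher in seed, green points at least 2-fold higher in pericarp and grey points neither, and black bars are medians. The medians run from -1.17 for WRKY to 3.29 for GRF.

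Several smaller types also had more genes higher in pericarp than in seed. The Tify genes, which include the JAZ repressors of jasmonate signalling, had 4 of 13 higher in pericarp, all by 4-fold or more, and 1 higher in seed. The first were led by Dlo_006218.1 (451 FPKM in pericarp, 13.7 in seed). GRAS genes, which include the DELLA repressors of gibberellin signalling, had 14 of 51 higher in pericarp and 8 higher in seed. Their leading member was Dlo_001452.1, at 124 FPKM in pericarp and 1.27 in seed. C2C2-GATA genes had 9 of 21 higher in pericarp and 4 in seed, C2C2-Dof genes 9 of 23 and 2, TCP genes 8 of 19 and 3, and SBP genes 5 of 17 and 0. At 4-fold TCP had 2 on either side and SBP had none.

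Single genes stood far apart within types that were otherwise mixed. The homeobox (HB) gene Dlo_012567.1 was at 82.2 FPKM in pericarp and 0.31 in seed, while Dlo_004721.1 of the same type was at 16.9 FPKM in seed and listed at 0 in pericarp. The C3H gene Dlo_028391.1 was at 1028 FPKM in pericarp and 47.3 in seed, whereas the C3H gene Dlo_020091.2 was at 0.52 FPKM in pericarp and 186 in seed. The MIKC gene Dlo_003537.1 was at 1241 FPKM in pericarp and 43.7 in seed, the reverse of the leading seed gene of that type. MIKC genes encode the MADS-domain proteins that set floral organ and ovule identity and fruit development.

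Further genes led their types towards pericarp with high levels. The C2H2 gene Dlo_002525.1 was at 1014 FPKM in pericarp and 43.2 in seed. The PLATZ gene Dlo_016733.1 was at 775 FPKM in pericarp and 168 in seed, although its type had more genes higher in seed. The Trihelix gene Dlo_002457.1 was at 608 FPKM in pericarp and 51.4 in seed. The first and the last of these had their highest level of the 9 libraries in pericarp, while the PLATZ gene peaked in young fruit (1477). The bHLH gene Dlo_016742.1 was at 548 FPKM in pericarp and 34.6 in seed, and the LOB gene Dlo_027854.1 was at 352 and 9.99 FPKM. The bZIP gene Dlo_031760.1 (21.7 FPKM in pericarp) and the M-type gene Dlo_002935.1 (23.9 FPKM) were listed at 0 in seed and in pulp.

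Seed had fewer TF types on its side. The types of at least 10 genes with more members higher in seed were AP2 (6 of 13 against 1), zf-HD (5 of 12 against 1), OFP (5 of 15 against 0), PLATZ (4 of 10 against 2), M-type (9 of 65 against 3) and bZIP (11 of 55 against 10). The M-type share of 13.8% was near that of all genes (12.5%), and 37 of its 65 genes were listed at 0 in both tissues. The median difference of bZIP was -0.18. By summed FPKM, bZIP (2246 in pericarp, 1844 in seed) and PLATZ (951 and 332) were higher in pericarp. AP2, zf-HD, OFP and M-type were higher in seed by that measure. At 4-fold bZIP (4 against 4) and PLATZ (2 against 2) were even, and OFP had 1 gene left. The 5 OFP genes were low, with a median of 1.37 FPKM in seed. AP2 genes, which include regulators of embryo and meristem growth, were higher: their summed level was 554 FPKM in seed, the highest of the 9 libraries, and 42.0 FPKM in pericarp. Dlo_014268.1 was at 86.3 FPKM in seed, listed at 0 in pericarp, and at most 1.35 FPKM elsewhere.

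Some leading seed genes of other types were shared with another organ, such as root, flower bud or stem. The HSF gene Dlo_018081.1, of the heat shock factors, was at 0.43 FPKM in pericarp, 24.1 in seed and 45.0 in root. The C2H2 gene Dlo_030134.1 was at 4.37 FPKM in pericarp, 119 in seed and 167 in flower bud. The MYB-related gene Dlo_026684.1 was at 5.20 FPKM in pericarp, 63.0 in seed and 60.2 in stem. Others were found mainly in seed, such as the zf-HD gene Dlo_005664.1, at 27.1 FPKM in seed, 1.48 in root and listed at 0 in the other 7 libraries. The M-type gene Dlo_011483.1 was at 0.79 FPKM in pericarp and 12.5 in seed but at 316 in pulp.

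The 10 TF genes with the largest differences towards seed came from 10 different types. They lay between 120 and 763 FPKM in seed and between 0.00 and 3.62 FPKM in pericarp, and all 10 were at their highest of the 9 libraries in seed. The C2C2-YABBY gene Dlo_019359.1 led with 322 FPKM in seed and a listing at 0 in pericarp, pulp and young fruit, but it was at 174 FPKM in flower. YABBY proteins act in the polarity of lateral organs and of the outer integument of the ovule. The bZIP gene Dlo_032523.1 was at 243 FPKM in seed, 8.12 in pulp and listed at 0 in pericarp. The NF-YB gene Dlo_020821.1 was at 209 FPKM in seed and listed at 0 in all other 8 libraries.

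The NF-YB, B3 and bZIP families are the ones from which the known seed maturation regulators of Arabidopsis come, and each had 1 gene among these 10. The B3 gene Dlo_012160.1 was at 120 FPKM in seed, 13.3 in flower bud and at most 0.13 in the other 7 libraries. As whole types, NF-YB had 3 genes higher in seed and 5 higher in pericarp, B3 had 8 and 11, and bZIP had 11 and 10. The NF-YB gene with the largest difference towards pericarp, Dlo_012839.1, was at 176 FPKM in pericarp and 14.7 in seed.

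The remaining genes of the 10 differed in where else they were found. The MIKC gene Dlo_026285.1, at 3.62 FPKM in pericarp and 763 in seed, was also at 473 FPKM in pulp and 92.5 in young fruit, and listed at 0 in root, stem and leaf. The bHLH gene Dlo_018083.1 and the LOB gene Dlo_010809.1 were both at 135 FPKM in seed and listed at 0 in pericarp, and in no other library did either pass 5.76 FPKM. Dlo_009103.1, listed under Orphans, was at 254 FPKM in seed, 1.5 in pericarp and 156 in root.

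**Figure D4:**
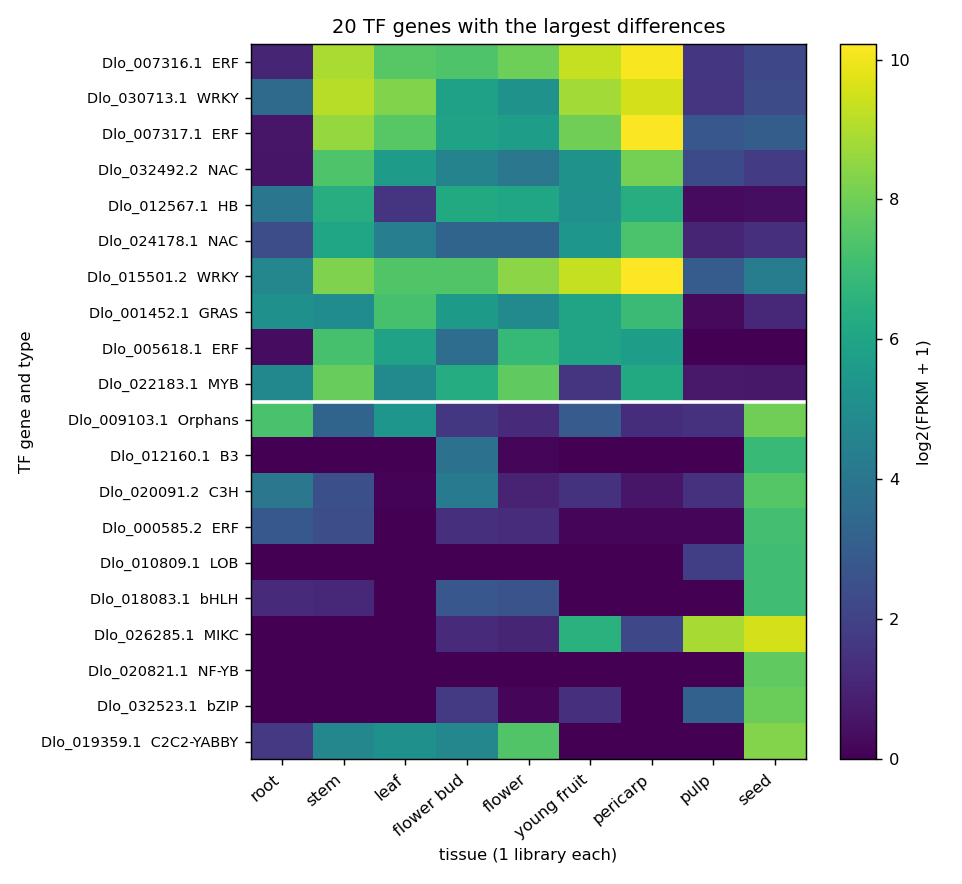
Rows are the 10 TF genes with the largest differences towards pericarp (above the white line) and the 10 with the largest towards seed (below it), and columns are the 9 libraries; colour gives log2(FPKM + 1). The upper genes are dark in pulp and seed and most are also bright in stem, leaf and young fruit, except Dlo_012567.1 in leaf (2.01 FPKM) and Dlo_022183.1 in young fruit (1.97 FPKM), while the lower genes are brightest in seed.

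GRF genes, the growth-regulating factors that promote cell proliferation, had the highest median difference of the types shown in the plot of single TF genes, and were singled out after their values were seen, since the type has under 10 genes. Of 9 genes, 7 were higher in seed, none was higher in pericarp and 1 was listed at 0 in both. The median difference was 3.29. Dlo_000440.1 was at 3.67 FPKM in pericarp and 85.8 in seed, and Dlo_005986.1 was at 0.27 FPKM in pericarp and 73.4 in seed. The other 5 lay between 1.42 and 20.2 FPKM in seed and between 0.00 and 1.32 FPKM in pericarp. The summed GRF level was 224 FPKM in seed, 77.3 in pulp and at most 31.0 in the other 7 libraries.

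The C2C2-YABBY type was singled out in the same way and leaned to seed as well, with 4 of 6 genes higher there and none higher in pericarp. Its summed level was 568 FPKM in seed and 72.5 in pericarp. Flower came close to seed with 516 FPKM. Other types with under 10 genes leaned to pericarp. RWP-RK had 5 of 9 genes higher in pericarp, 4 of them by 4-fold or more, and none higher in seed, with a median difference of -1.87. CAMTA had 3 of 5 higher in pericarp and none higher in seed, with a median difference of -1.17.

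Many TF genes did not pass the 2-fold limit. Among the 112 TF genes with at least 50 FPKM in both tissues, 72 were under 2-fold apart. This filter leaves out genes that are low in 1 of the tissues, so it favours small differences. The same share over all genes was not computed. The steadiest were the Alfin-like gene Dlo_025560.1 (69.7 FPKM in pericarp, 70.4 in seed), the bZIP gene Dlo_017026.1 (83.6 and 85.3) and the LOB gene Dlo_005903.1 (97.2 and 100.2). None of the 19 FAR1 genes passed the 2-fold limit in either direction, and among those with at least 10 FPKM the largest differences were -0.64 and 0.47. ARR-B genes, the cytokinin response regulators, had 1 of 10 past it, Dlo_005845.1, at 11.9 FPKM in pericarp and 4.33 in seed, and its difference of -1.27 became -0.85 with a pseudocount of 5 FPKM.

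Genes other than TFs were named here from the study's annotation of 816 genes that carry sequence variants in some cultivars, joined by gene ID. The table holds 796 of these, and 766 are not on the TF list. They did not lean either way, with 97 (12.7%) higher in seed and 98 (12.8%) higher in pericarp, near the shares over all genes (12.5% and 14.5%). Each gene group below is therefore a part of its family. The groups are small beside these shares, so their counts describe single genes and give no direction for a pathway.

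The 8 annotated genes with the largest differences towards seed were headed by Dlo_017782.1, annotated as a cathepsin L-like cysteine peptidase of the papain type. It was at 3.38 FPKM in pericarp and 1215 in seed, and nearly as high in flower bud (1167). Papain-type peptidases process and break down stored protein in seeds, among other tasks. Dlo_007632.2, annotated as uracil phosphoribosyltransferase, a pyrimidine salvage enzyme, was at 14.9 FPKM in pericarp and 900.5 in seed, against at most 46.5 in any other library. Dlo_026788.2, a glutamate dehydrogenase, which links amino acid breakdown to central carbon metabolism, was at 18.9 FPKM in seed and listed at 0 in pericarp.

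Seed also had the higher level of isocitrate lyase, the glyoxylate cycle enzyme by which seeds turn stored oil into sugar. Dlo_018186.1 was at 0.30 FPKM in pericarp and 36.9 in seed, and at most 1.70 in the other 7 libraries. Dlo_013177.1, annotated as beta-mannan synthase, which makes a cell wall polysaccharide that many seeds store, was at 1.07 FPKM in pericarp and 94.7 in seed, with 32.7 in young fruit and 23.9 in root. Dlo_009409.1 carries a glyoxal oxidase domain although its pathway label is glutathione S-transferase, and it was at 6.52 FPKM in pericarp and 331 in seed. The remaining members of the 8 were Dlo_017830.1 (1.51 FPKM in pericarp, 140 in seed) and a receptor kinase gene described below.

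On the pericarp side the 8 annotated genes were headed by Dlo_032138.2, a protein kinase with a Gnk2 domain, at 198 FPKM in pericarp and 0.79 in seed. Dlo_008167.1, a CML-type calcium-binding protein, was at 101 FPKM in pericarp and 1.09 in seed, and far higher in leaf (603). Dlo_014526.1, with a NUDIX hydrolase domain, was at 891 FPKM in pericarp and 21.5 in seed. Calmodulin-like (CML) proteins carry calcium signals and NUDIX enzymes hydrolyse nucleotide derivatives.

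The other 5 of these genes carry different domains. Dlo_011120.1, with a CBS domain, was at 361 FPKM in pericarp and 13.1 in seed, and Dlo_017774.1, with a methyltransferase domain, was at 104 and 2.02 FPKM. Dlo_008064.1, with an ALOG domain, was at 75.8 FPKM in pericarp and 2.32 in seed. Dlo_018910.1, labelled coatomer subunit alpha and carrying WD40 repeats, was at 48.5 and 0.44 FPKM. Dlo_028743.1, labelled a 2-oxoglutarate-dependent dioxygenase, was at 23.1 FPKM in pericarp and listed at 0 in seed. All 5 were at 42.1 FPKM or less in pulp, and 2 of them were listed at 0 there.

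Of 5 annotated phenylpropanoid and flavonoid enzyme genes, 2 were higher in seed and none was higher in pericarp. These enzymes lead to lignin, tannins and other polyphenols. These 5 genes are in the list because they carry variants, and give no direction for the pathway as a whole. Genes for the final steps of tannin synthesis were not analysed here. The gene for cinnamate 4-hydroxylase, an early enzyme of the pathway, Dlo_002085.1, was at 41.7 FPKM in pericarp and 137 in seed, and its highest level was in root (1629). One gene labelled dihydroflavonol 4-reductase, Dlo_025848.1, was at 3.30 FPKM in pericarp, 12.3 in seed and 541 in root. The other, Dlo_024800.1, was at 1.97 and 1.73 FPKM. The 4-coumarate:CoA ligase genes were within 2-fold, with Dlo_030106.1 at 81.8 FPKM in pericarp and 134 in seed and Dlo_020295.1 at 5.65 and 6.67 FPKM.

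Among 4 annotated genes of abscisic acid turnover and signalling, 1 was higher in pericarp and none was higher in seed. In model plants abscisic acid is the hormone of seed maturation and dormancy. Dlo_001160.1, annotated as the 8'-hydroxylase that breaks this hormone down, was at 32.3 FPKM in pericarp and 1.89 in seed, and pericarp had the highest level of the 9 libraries. A second gene with this annotation, Dlo_031754.1, was listed at 0 in both tissues and reached 44.9 FPKM in flower. A PP2C-labelled gene, Dlo_019118.1, was at 43.1 and 33.3 FPKM, and Dlo_023607.1, labelled as a PYR/PYL receptor but carrying auxin response factor domains too, was at 12.6 and 15.2 FPKM.

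Of 16 genes of other hormone pathways, 4 were higher in seed and 1 was higher in pericarp, while 6 were under 1 FPKM in both tissues. Over all genes, 12.5% were higher in seed and 14.5% in pericarp. The brassinosteroid receptor-like kinase gene Dlo_020303.1 was at 0.58 FPKM in pericarp and 46.0 in seed, level with root (47.2). The auxin response factor gene Dlo_030332.1 was at 2.97 FPKM in pericarp and 34.9 in seed, and at 70.0 in root. The ARF type as a whole was different, with 5 of 17 genes higher in pericarp and 1, this gene, higher in seed. Dlo_012431.1, another receptor-like kinase gene, was listed at 0 in pericarp, at 6.58 FPKM in seed and at 27.1 in root. Dlo_016652.1, annotated as CTR1, the kinase that holds ethylene signalling off, was at 55.6 FPKM in pericarp and 136 in seed. The 1 gene higher in pericarp was Dlo_020505.1, annotated as a co-receptor kinase of the BAK1 kind, at 107 FPKM in pericarp and 20.8 in seed.

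The list of peroxisomal fatty acid oxidation and glyoxylate cycle genes had 2 of 7 members higher in seed and 2 higher in pericarp, but 4 of the 7 carry an annotation that contradicts itself. These 4 are labelled acyl-CoA oxidase and have cytochrome P450 domains. They include both genes higher in pericarp, Dlo_020565.1 (83.9 FPKM in pericarp, 17.7 in seed) and Dlo_020572.1 (20.8 and 1.40), and 1 of the genes higher in seed, Dlo_033112.1 (1.31 and 9.78). Without them the list holds isocitrate lyase, given above, the multifunctional beta-oxidation gene Dlo_019947.1 (94.3 FPKM in pericarp, 167 in seed) and the long-chain acyl-CoA synthetase gene Dlo_006082.1 (13.7 and 14.6).

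Of 6 starch, sucrose and trehalose genes, 2 were higher in seed and 1 was higher in pericarp. The trehalose-phosphate synthase gene Dlo_020588.1 was at 9.96 FPKM in pericarp and 40.1 in seed, the highest of the 9 libraries. The beta-amylase gene Dlo_025625.1 was at 2.46 FPKM in pericarp and 6.18 in seed, and its difference of 1.05 became 0.58 with a pseudocount of 5 FPKM. The beta-fructofuranosidase (invertase) gene Dlo_023358.1 was at 17.8 FPKM in pericarp and 3.84 in seed.

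Of 8 cell wall genes, 2 were higher in pericarp and 1, the beta-mannan synthase gene, was higher in seed. The xyloglucan transferase gene Dlo_003710.1, whose enzyme loosens and rejoins the wall as cells grow, was at 78.2 FPKM in pericarp and 10.2 in seed. The cellulose synthase gene Dlo_033645.1 was at 15.4 FPKM in pericarp and 0.85 in seed, and at 40.9 in young fruit. A pectinesterase gene, Dlo_021909.1, was at 61.1 and 34.6 FPKM.

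Among the other lists of annotated genes, the S-locus and bulb-type lectin genes, mostly receptor-like kinases of the cell surface, were the most one-sided, with 8 of 14 higher in pericarp, none higher in seed and a median difference of -1.20. The strongest was Dlo_011255.1, at 83.9 FPKM in pericarp and 3 in seed. None of the 9 ribosomal protein genes passed the limit in either direction, and their median difference was -0.05. Pentatricopeptide repeat genes, which act on RNA in chloroplasts and mitochondria, had 3 of 18 higher in seed and none higher in pericarp. Over all genes the shares were 12.5% higher in seed and 14.5% higher in pericarp.

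Cytochrome P450 genes were 2 of 12 higher in seed and 4 higher in pericarp, and ABC transporter genes were the same. The P450 counts repeat genes of the lists above, namely Dlo_001160.1, Dlo_002085.1, Dlo_020565.1, Dlo_020572.1 and Dlo_033112.1. LRR-RLK genes had 4 of 16 higher in seed and 1 higher in pericarp. These include Dlo_012431.1, Dlo_020303.1 and Dlo_020505.1, already counted among the hormone genes. NBS-LRR genes, a class of disease resistance genes, had 1 of 9 higher in pericarp and none higher in seed. Of these 9 genes, 4 reached 1 FPKM in either tissue, as did 9 of the 16 LRR-RLK genes. The same held for 9 of the 12 P450 genes and 9 of the 12 ABC transporter genes. Genes under 1 FPKM in both tissues cannot pass the limit with the added 1 FPKM. Genes of DNA replication, chromatin and microtubules had 3 of 11 higher in seed and 1 in pericarp. The 3 were kinesin genes, motor proteins of the spindle and of cell plates, and the 1 was the alpha-tubulin gene Dlo_030600.1 (383 FPKM in pericarp, 168 in seed). Chaperone genes had 2 of 7 higher in seed, among them the chaperonin gene Dlo_027201.1 (34.0 FPKM in pericarp, 99.8 in seed), and 1 higher in pericarp.

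Photosynthesis, chlorophyll and carotenoid genes had 1 of 8 higher in seed and 2 higher in pericarp. The seed gene was a light-harvesting chlorophyll a/b-binding protein gene, Dlo_012937.1, at 7.21 FPKM in pericarp and 16.7 in seed. The magnesium chelatase gene Dlo_023618.1, for the first step towards chlorophyll, was at 9.12 FPKM in pericarp and 1.19 in seed. The second gene higher in pericarp, Dlo_018835.1, is labelled zeta-carotene desaturase but carries a GDSL lipase domain.

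The other 7 libraries were then examined for the genes that were at least 4-fold apart with at least 10 FPKM in the higher tissue. There were 1202 such seed-high genes and 1489 pericarp-high genes. TF genes made up 6.16% of the seed-high genes and 11.5% of the pericarp-high genes, against 5.09% of all genes in the table. Since the levels in pericarp and seed chose these genes, only the other 7 tissues are informative here.

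Outside pericarp and seed, the median level of the pericarp-high genes was highest in stem and leaf. Their median log2(FPKM + 1) was 5.24 in stem, 5.01 in leaf, 4.93 in young fruit, 4.41 in open flower, 4.33 in flower bud, 3.86 in root and 2.04 in pulp. Over all 12532 genes with at least 10 FPKM in pericarp or seed, the same medians were 4.76 in stem, 4.77 in leaf, 4.86 in young fruit, 4.49 in open flower, 4.63 in flower bud, 4.73 in root and 4.22 in pulp. The pericarp-high genes thus lay above these medians in stem and leaf, close to them in young fruit and open flower, and below them in flower bud, root and pulp. Pulp, the tissue that lies between rind and seed, was the one in which these genes were lowest, below the median level in seed itself (2.45). Young fruit was the highest of the 7 for 23.3% of the genes (18.6% of the 12532), stem for 21.4% (8.46%) and leaf for 21.2% (19.9%). In all, 5 of the 1489 genes (0.336%) were under 1 FPKM in all 7. The 12532 genes held 119 such genes (0.950%), of which 114 were seed-high. That share is thus set mainly by the seed-high genes and is no baseline for the pericarp-high genes.

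The seed-high genes were lower elsewhere. Their median log2(FPKM + 1) was 3.42 in root and 2.70 in young fruit, then 2.53 (flower bud), 2.42 (flower) and 2.32 (stem), and lowest in pulp (1.76) and leaf (1.20). Root was the highest of the 7 for 408 of them (33.9%, against 19.1% of the 12532 genes) and pulp for 217 (18.1%, against 16.3%). Under 1 FPKM in all 7 were 114 of them (9.48%), against 119 (0.950%) of the 12532, which include these 114. TF genes had the same highest and lowest of the 7 organs: the 195 higher in seed had a median of 4.22 FPKM in root and 0.29 in leaf, and the 364 higher in pericarp had a median of 30.2 FPKM in stem and 2.66 in pulp.

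**Figure D5:**
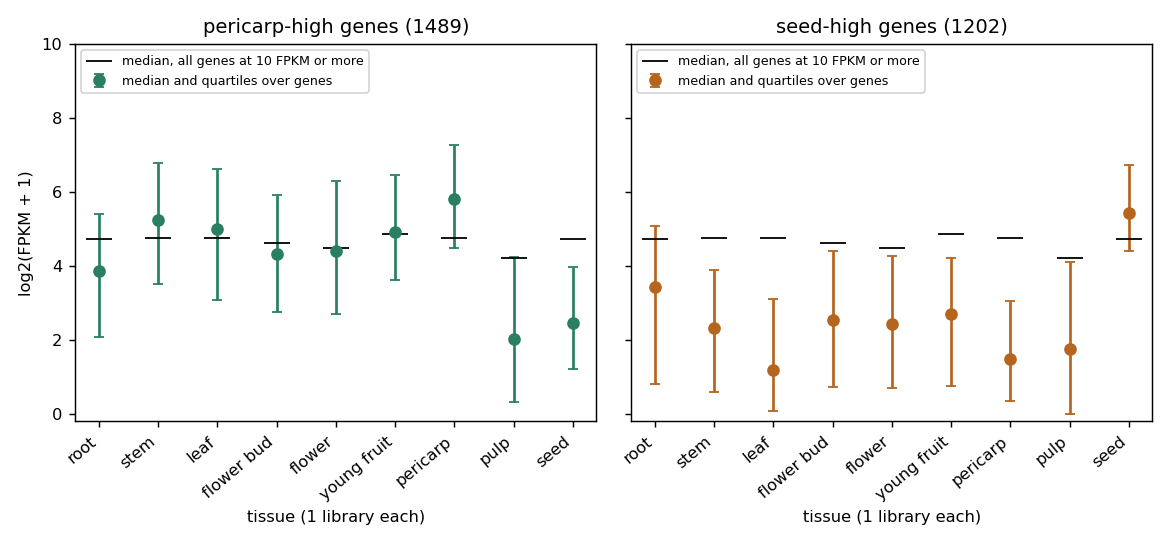
Points are medians of log2(FPKM + 1) over the 1489 pericarp-high genes (left) and the 1202 seed-high genes (right) in each of the 9 libraries, with bars from the lower to the upper quartile over genes; black dashes are medians over all 12532 genes with at least 10 FPKM in pericarp or seed. Pericarp-high genes are low in pulp (2.04) and at the level of all genes in young fruit, while seed-high genes are below all genes in every library but seed.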

How the data were processed

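The authors isolated poly(A)+ RNA with TRIzol and oligo(dT) beads, sequenced it on an Illumina HiSeq system, removed adaptor, low-quality, organelle and ribosomal reads, aligned the rest with TopHat2 2.0.10 (version per the labels) to the “HHZ” draft genome, and deposited FPKM values with 2 decimals; the tool that computed FPKM is not given in the sources used here. Reads on near-identical genes can be split by such a step. Columns were assigned to tissues by name and used as deposited, with Python 3.11.15, numpy 2.4.6 and pandas 2.3.3. TF types and annotation of single genes came from the study's supplementary lists, joined by gene ID. With 1 library per tissue, only differences, counts and medians were computed. The calculations were tested on simulated data.

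Named genes were the 10 TF genes with the largest differences in each direction, the 3 highest TF genes per tissue, the 3 steadiest with at least 50 FPKM, the extreme gene of each TF type, the 8 extreme annotated genes and the 2 extreme unannotated genes per direction, most with at least 10 FPKM, and members of 6 gene lists. Members and lists were chosen with earlier results of these data known. Polyphenol family genes under other identifiers were not used here.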

Additional observations from a re-analysis of the deposited data

How the results depend on the processing

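No paired analysis was possible because pericarp and seed have 1 library each. With a pseudocount of 0.1 FPKM the changed genes numbered 12249, of which 5797 were higher in seed, and 301 TF genes were higher in seed. With 5 FPKM they numbered 4987 (2248 higher in seed, 2739 in pericarp), with 119 TF genes higher in seed. At a 4-fold limit they numbered 3604 (1633 and 1971), with 312 TF genes (101 and 211) and 19 MYB genes higher in pericarp. Leaving out the 10 highest genes of each library raised the seed-higher share among changed genes from 46.1% to 53.2%. The other counts of genes, TF genes and ERF, WRKY, NAC and MYB genes on the pericarp side stayed within 1.5 times under the 8 alternatives, and the numbers of genes above 0 FPKM did so at 0.1 and 1 FPKM. Of the 64 counts per TF type and direction, however, 38 moved by more at the 4-fold limit, 22 with either pseudocount, and 4 or fewer under the 2 scalings. Of 137 named genes, 2 with differences near 0 changed sign: Dlo_032487.1 to 0.04 after median-ratio scaling and 0.14 without the 10 highest genes, and Dlo_024800.1 to 0.01 without those genes. The NAC gene Dlo_029232.1, under the limit as deposited, passed it at 1.02 and 1.15 under these 2 scalings. It was 1 of 2 named genes that newly passed the limit without the 10 highest genes. With a pseudocount of 0.1 FPKM, 2 named genes newly passed it. Without replicates, differences near the limit and levels under about 1 FPKM are the least certain, and the error of single genes is unknown.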
